A study of Mus musculus with 6 samples.

Results

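The genes described here are 10 mouse genes of the major histocompatibility complex (MHC) class I pathway and of peptide loading in H22 liver tumors. They were picked by symbol among the 34099 genes of the count files, where each symbol matched a single gene. They are H2-K1, H2-D1, H2-T23 and H2-Q7 (heavy chains), B2m (the light chain), Tap1, Tap2 and Tapbp (peptide transport and loading), Nlrc5 (a transactivator) and Psmb8 (an immunoproteasome subunit). H22 is a murine hepatocellular carcinoma (HCC) cell line, and its cells were grown as ascites, pooled and injected into the left lateral liver lobe of wild-type male C57BL/6J mice, which were 8 weeks old when obtained. The 3 stress mice went through chronic unpredictable mild stress, with varied stressors every day for 21 days ahead of implantation, and the 3 control mice received the same tumor cells without stressors. Each mouse gave 1 single-cell RNA library from liver tumor tissue. The mice carry no engineered allele, and the tumor cells of every mouse come from the same line, so host and tumor cells lie side by side in each library.

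MHC class I molecules show short peptides from inside the cell to CD8+ T cells. The proteasome cuts proteins into peptides, and interferon replaces some of its subunits, Psmb5 by Psmb8 among them, to form the immunoproteasome. Tap1 and Tap2 form the pump that carries peptides into the endoplasmic reticulum, and tapasin, the product of Tapbp, holds the empty heavy chain and B2m next to the pump until a peptide is bound. Nlrc5 enters the nucleus and drives transcription of class I genes. H2-K1 and H2-D1 are the classical heavy chains in C57BL/6 mice, whereas H2-T23 encodes Qa-1 and H2-Q7 encodes Qa-2, which are non-classical heavy chains. Qa-1 presents leader peptides of other class I chains to the CD94/NKG2A receptor of NK cells. Loss of class I is a known way for tumor cells to escape CD8+ T cells, and loss of class I also removes an inhibitory signal for NK cells.

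Of the 10 genes, 8 lie on chromosome 17 of GRCm38 (GENCODE M21), and all are annotated as protein-coding. H2-K1 spans 33996017 to 34000347 on the minus strand, Tapbp 33915899 to 33929292, Tap1 34187553 to 34197225, Psmb8 34197721 to 34201454 and Tap2 34203527 to 34216321 on the plus strand. H2-D1 spans 35262730 to 35267499 and H2-Q7 35439155 to 35443773 on the plus strand, and H2-T23 spans 36029773 to 36032855 on the minus strand. B2m lies on chromosome 2 from 122147686 to 122153083 and Nlrc5 on chromosome 8 from 94434356 to 94527272, both on the plus strand. Heavy chains are close relatives, and reads may be shared among them. Of the 100-base stretches in the last 500 bases of the longest transcript, 0 of 401 of H2-K1, H2-D1 and H2-Q7 were found whole in a transcript of another gene, as were 39 of 401 of H2-T23, in Hook2 and Rab33b. These matches use the reference letters of C57BL/6J. No source used here gives the class I alleles of H22, so heavy chain counts in tumor cells depend in an unknown way on how well H22 transcripts match that reference.

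Promoter sequence was taken from the RefSeq table of GRCm38.p6, which held 8 of the 10 genes, and the 250 bases before the listed start were searched on both strands. Motifs were a kappaB site, whose 11 letters are the capitals that open the H2-K1 line, and a core bound by interferon regulatory factors, AANNGAAA, and no match of one overlapped a match of the other. They are shown because class I genes are known to respond to both kinds of factor, and because H2-K1 and H2-D1 differed in their values below. The kappaB letters were found in 10 of 32851 promoters (0.0304%), H2-K1 and H2-D1 among them, and the other core in 6999 (21.3%). Only this exact kappaB string, as H2-K1 carries it, was searched, so other forms of a kappaB site were not counted. In the lines below, each stretch of 29 bases ends with the second motif, and capitals mark a match of either motif. H2-K1 is chr17:34000430-34000458 on the minus strand, H2-D1 chr17:35262923-35262951, H2-Q7 chr17:35439021-35439049 and B2m chr2:122147529-122147557 on the plus strand.
H2-K1: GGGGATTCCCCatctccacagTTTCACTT
H2-D1: GGGGATTCCCCatctcctcagTTTCACTT
H2-Q7: tggggattcccatctccccagTTTCACTT
B2m: cgggactttataagaacatgaAACTGAAA

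H2-K1 and H2-D1 hold both motifs in the same order and at the same distance, with the kappaB letters starting 111 and 171 bases before the start that RefSeq lists. H2-Q7 and B2m hold exact matches of the second motif only, and H2-T23 holds 2 matches of it, 124 and 81 bases before its RefSeq start. The H2-Q7 line does hold, in lower case, all but the last of the kappaB letters, which the exact search did not count. RefSeq and GENCODE place some starts differently. The RefSeq start lies 364 bases inside the GENCODE span of H2-D1 and 154 bases inside that of H2-T23, so the matches of these genes lie within the gene spans given above, whereas those of H2-K1, H2-Q7 and B2m lie before them. Neither motif was found in these windows of Tap1, Tapbp and Psmb8. A match describes letters and not binding, which was not measured here.

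The authors annotated 58794 cells out of 61374 barcodes and gave them 10 cell types, with 29638 tumor cells in 10 clusters. Each library held between 149558935 and 187728350 UMIs (unique molecular identifiers, tags that count each captured RNA molecule once), and the median per tumor cell lay between 21971 and 32523. Any pair of libraries shared 13 to 40 cell barcodes. Of the markers listed for each cell type, all were highest in their own type in 7 types, 4 of 5 in monocytes and 3 of 4 in tumor cells. None of the 3 markers of monocytic myeloid-derived suppressor cells (M-MDSCs) was highest in that type. These cells carried Krt18, a keratin with its highest mean in tumor cells, at 340 CPM (mean of 6 mice) against 423 CPM in tumor cells, so their name is used here only as the annotation gives it. Krt18 does not mark tumor cells alone, with a mean of 417 CPM in hepatic stellate cells. The tumor marker that was highest elsewhere was Krt8, at 5.66 CPM in tumor cells and 300 CPM in hepatic stellate cells. Levels are in CPM, the UMIs of a gene divided by all UMIs of the same cells in a mouse, times 1000000. Matrix headers name Cell Ranger 9.0.0 for control and 7.1.0 for stress libraries, so stress and the counting version cannot be told apart in any comparison of the groups.

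In CPM, each of the 10 genes had its lowest mean in tumor cells. CPM is a share of all UMIs, and tumor cells had a median of 27716 UMIs per cell against 4538 in endothelial cells. Detection per cell need not follow the CPM ranking. A UMI of Tapbp was seen in 68.0% of tumor cells, 45.7% of endothelial cells and 77.3% of hepatic stellate cells. Mean UMIs per cell were not compared. H2-K1 and H2-D1 in tumor cells lay below every other cell type in all 54 pairs of a mouse and another type, and the same held for Psmb8. For the other 7 genes the tumor cells were the lower ones in 50 to 53 of 54 pairs. The cell types were drawn from these cells' own genes, so these levels are a description without a test. The map of levels by cell type and mouse shows this order.

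**Figure D1:**
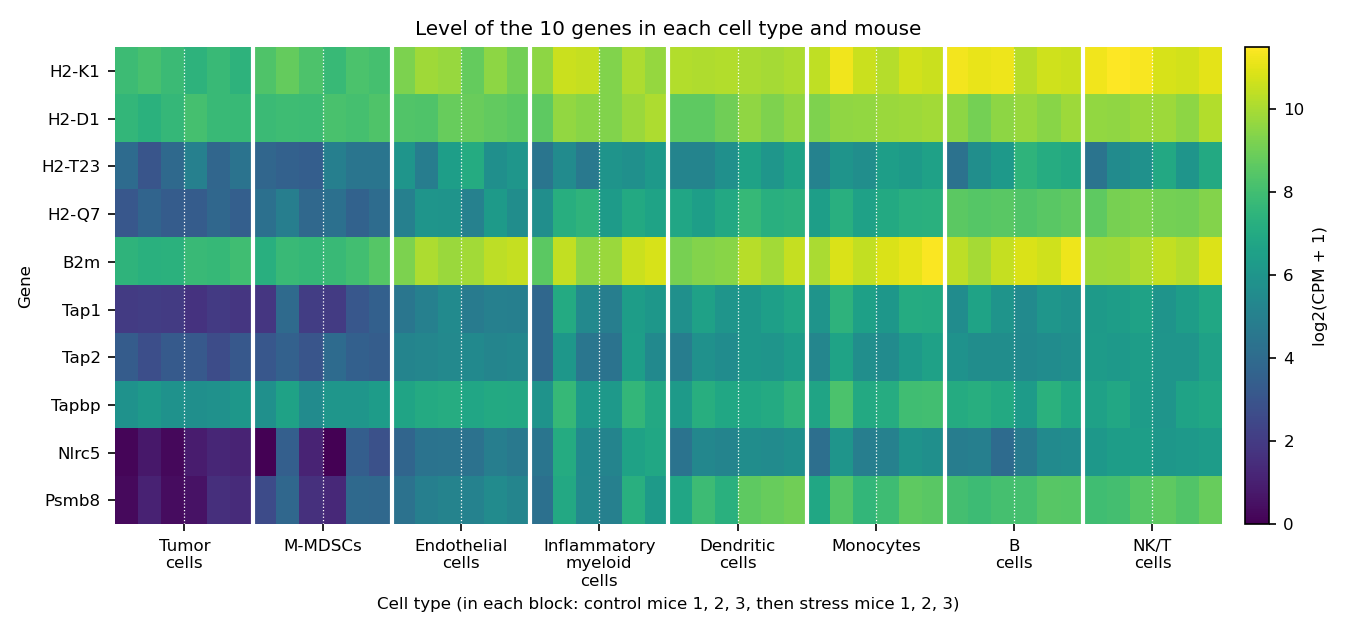
Level of each of the 10 genes, as log2(CPM + 1), in 8 cell types, with 1 column per mouse (control mice 1 to 3, then stress mice 1 to 3, split by a dotted line). Tumor cells and then M-MDSCs have the lowest mean in every row, Psmb8 and Nlrc5 are near 0 in tumor cells, and Tapbp differs least between types.

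The classical heavy chains were readily counted in tumor cells. H2-K1 reached 236, 282 and 228 CPM in the tumor cells of control mice 1, 2 and 3 and 174, 217 and 169 CPM in those of stress mice 1, 2 and 3. H2-D1 reached 193, 161 and 204 CPM in control and 277, 222 and 215 CPM in stress mice. A UMI of H2-K1 was seen in 94.3% of tumor cells (27948 of 29638, exact 95% interval 94.0% to 94.6%) and a UMI of B2m in 94.2%. These intervals cover counting error only, since cells of a mouse are not independent. The classical chains and their light chain were therefore detected in most tumor cells, whereas other cell types had higher means in CPM, by differing amounts. In M-MDSCs the means were 1.41 (H2-K1), 1.25 (H2-D1) and 1.20 (B2m) times those of tumor cells. The mean of H2-K1 was 10.4 times as high in NK/T cells, 7.40 times in monocytes and 3.11 times in endothelial cells (ECs). For H2-D1 these ratios were 4.12, 3.85 and 1.87.

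The ratios to tumor cells differed widely among the other genes. Psmb8 was 357 times as high in NK/T cells as in tumor cells, 291 times in monocytes and 34.7 times in ECs. Nlrc5 was 104, 57.9 and 28.6 times as high in the same types. Tap1 was 30.5 times as high in NK/T cells and 38.8 times in monocytes, against 10.0 and 8.86 times for its partner Tap2. Tapbp differed least, between 1.13 and 3.25 times over the 7 other types tested, and tumor cells held it at 57.8, 72.8 and 57.3 CPM in control and 52.3, 55.5 and 66.2 CPM in stress mice. H2-Q7 had its highest mean in NK/T cells, 551 CPM against 10.3 CPM in tumor cells. H2-T23 ranged more narrowly, from 16.8 CPM in tumor cells to 95.7 CPM in B cells.

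Psmb8 and Nlrc5 had few UMIs in tumor cells. Psmb8 was at 0.234, 1.17 and 0.283 CPM in control mice 1, 2 and 3 and at 0.470, 1.96 and 1.64 CPM in stress mice 1, 2 and 3. The summed CPM of Ptprc, Tyrobp, Cd74, Lyz2 and Cd3e, genes of immune cells, was 6.72, 37.5 and 9.74 in the tumor cells of the control mice and 8.06, 40.5 and 34.6 in those of the stress mice. The same 3 libraries, control 2 and stress 2 and 3, were highest in Psmb8 and in this sum. Nlrc5 did not share that order, with 0.123, 0.659 and 0.191 CPM in control and 0.809, 1.36 and 1.24 CPM in stress mice, where stress mouse 1 stood above control mouse 2. Pecam1, an adhesion protein of ECs, was also higher in the tumor cells of every stress mouse, at 3.0, 3.48 and 2.46 CPM in control and 9.69, 7.60 and 10.4 CPM in stress mice, whereas Cdh5, the EC cadherin, overlapped, at 2.72, 2.73 and 1.90 against 1.65, 2.59 and 3.65 CPM. A UMI of Psmb8 was present in 2.20% of tumor cells and a UMI of Nlrc5 in 1.45%, below the 6.90% with a UMI of Tyrobp, a myeloid and NK cell gene, at a median of 27716 UMIs per cell. A share at or below that of such a gene is not read here as expression. With every cell thinned to 1000 UMIs, which left out 324 tumor cells, the shares were 0.0921%, 0.0750% and 0.283%, against 33.8% with Psmb8 in NK/T cells. NK/T cells have a median of 4403 UMIs, and 77.6% of them had a Psmb8 UMI before thinning.

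Tumor cells were then restricted to the 24591 with at most 1 UMI over 7 immune and endothelial genes. Psmb8 came to 0.228, 1.06 and 0.267 CPM in control and 0.448, 1.24 and 1.03 CPM in stress mice, and Nlrc5 to 0.123, 0.569 and 0.171 against 0.342, 0.838 and 0.711 CPM. Nlrc5 in stress mouse 1 then lay below control mouse 2, so that its groups overlapped, unlike in all tumor cells. Pecam1, one of the 7 genes, overlapped as well (1.34 to 2.02 CPM in control and 1.32 to 1.85 CPM in stress mice). H2-K1 was at 236, 280 and 227 against 173, 212 and 163 CPM, close to its values in all tumor cells. The part of immune or endothelial RNA in the remaining Psmb8 and Nlrc5 UMIs was not tested.

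The order of the cell types had few clear steps. For H2-K1 the means ran from 2348 CPM in hepatic stellate cells (HSCs) through 2260 in NK/T cells, 1898 in B cells, 1610 in monocytes, 1098 in neutrophils, 1088 in dendritic cells (DCs), 1030 in inflammatory myeloid cells and 678 in ECs to 308 in M-MDSCs and 218 in tumor cells. HSCs lay above NK/T cells in only 2 of 6 mice, and control mice 2 and 3 held only 6 and 8 HSCs. The ranges over 6 mice overlapped between all neighbours in this order except ECs and M-MDSCs. The same single step below ECs was found for H2-Q7, Tap1, Tap2 and Psmb8, whereas for B2m it lay between DCs (919 CPM) and M-MDSCs (234 CPM). For H2-D1, H2-T23, Tapbp and Nlrc5 all neighbours overlapped. B2m was highest in monocytes, at 1838 CPM.

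Across the 48 sums of a mouse and a cell type, the mean pattern of the 10 genes was followed most closely by Psmb9 (Pearson r = 0.968), like Psmb8 a subunit of the immunoproteasome. Arhgdib, a gene of blood cells (r = 0.962), Sp110, an interferon-inducible nuclear body gene (r = 0.961), Casp1, the inflammasome protease (r = 0.957), and Traf3, a signalling adaptor (r = 0.95), came next among 9005 genes with a mean of at least 10 CPM. Of the 10 genes themselves, Tap1 followed the mean best (r = 0.976) and Tapbp least (r = 0.766). The sums share libraries and the contrast of tumor with blood cells, so these correlations are a description.

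Stress and control mice were compared within tumor cells by edgeR's quasi-likelihood test on UMIs summed per mouse. H2-K1 was called lower in stress mice, at a log2 fold change of -0.56 ± 0.11 (SE, n = 3 mice a group) and an edgeR adjusted p of 0.0163. No stress mouse reached the lowest control mouse. It was the only one of the 10 genes called, at a background of 21.4% of the 18856 genes tested (12.0% higher and 9.46% lower), so that 1 call among 10 genes is not above the share of all genes. DESeq2, which called 26.5% of all genes, called Tap1 (lower) and Nlrc5 (higher) beside H2-K1. The H2-K1 call held with any 1 mouse left out (edgeR adjusted p from 0.0192 to 0.0469). It was lost when libraries were scaled by their total UMIs, where the log2 fold change was -0.41 and the edgeR adjusted p 0.0641, and in cells thinned to 1000 UMIs, at -0.37 and 0.137.

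Scaling needs care in tumor cells. TMM, which centres the fold changes of the genes, and plain scaling by total UMIs differ there by 0.14 on the log2 scale in the median of all genes. Of the genes called, 55.9% were higher under TMM and 81.7% under total UMIs. CPM values follow total UMIs, so the CPM values of H2-K1 show a smaller difference than its TMM fold change and those of H2-D1 and B2m a larger one.

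The light chain and the second classical chain went the other way without being called in the test described above. B2m was at 176, 156 and 163 CPM in control and 223, 204 and 249 CPM in stress mice, with no overlap, and its log2 fold change was 0.31 ± 0.11 (edgeR adjusted p = 0.0823). Under total UMIs it was called, at 0.45 (edgeR adjusted p = 0.0220). H2-D1 did not overlap either and had a log2 fold change of 0.22 ± 0.16 (edgeR adjusted p = 0.354). In CPM, 3 of the 10 genes lay higher in every stress mouse and 2 lower, beside 28.2% and 10.1% of all genes (38.3% in either direction).

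Of the other genes in tumor cells, Tap1 was at 3.04, 3.23 and 2.96 CPM in control and 2.24, 2.92 and 2.48 CPM in stress mice (edgeR log2 fold change -0.42 ± 0.14, edgeR adjusted p = 0.0689). A UMI of Tap1 was seen in 7.63% of tumor cells, against 6.90% with Tyrobp, and in 0.263% against 0.283% after thinning. With at most 1 UMI of the 7 immune and endothelial genes per cell, Tap1 lay at 2.89 to 3.04 against 2.20 to 2.69 CPM. The part of other cells' RNA in its UMIs was not tested. The pump's 2 subunits had the same sign, with -0.28 ± 0.25 for Tap2, and Tapbp had -0.25 ± 0.12. The Nlrc5 values given above rest on 21, 100 and 31 UMIs in control and 112, 163 and 129 in stress mice. The log2 fold change of Nlrc5 was 1.68 ± 0.56 (edgeR adjusted p = 0.0680), and without control mouse 2 it was called, at 2.67 (edgeR adjusted p = 0.00343), as was Psmb8, at 2.18 (edgeR adjusted p = 0.0229). Psmb8 had 1.12 ± 0.69 with all mice, H2-T23 0.68 ± 0.40 and H2-Q7 0.04 ± 0.18, and their groups overlapped. With the replicate number as a block edgeR called B2m, H2-T23, Nlrc5 and Psmb8 in tumor cells beside H2-K1, with 27% of all genes called.

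**Figure D2:**
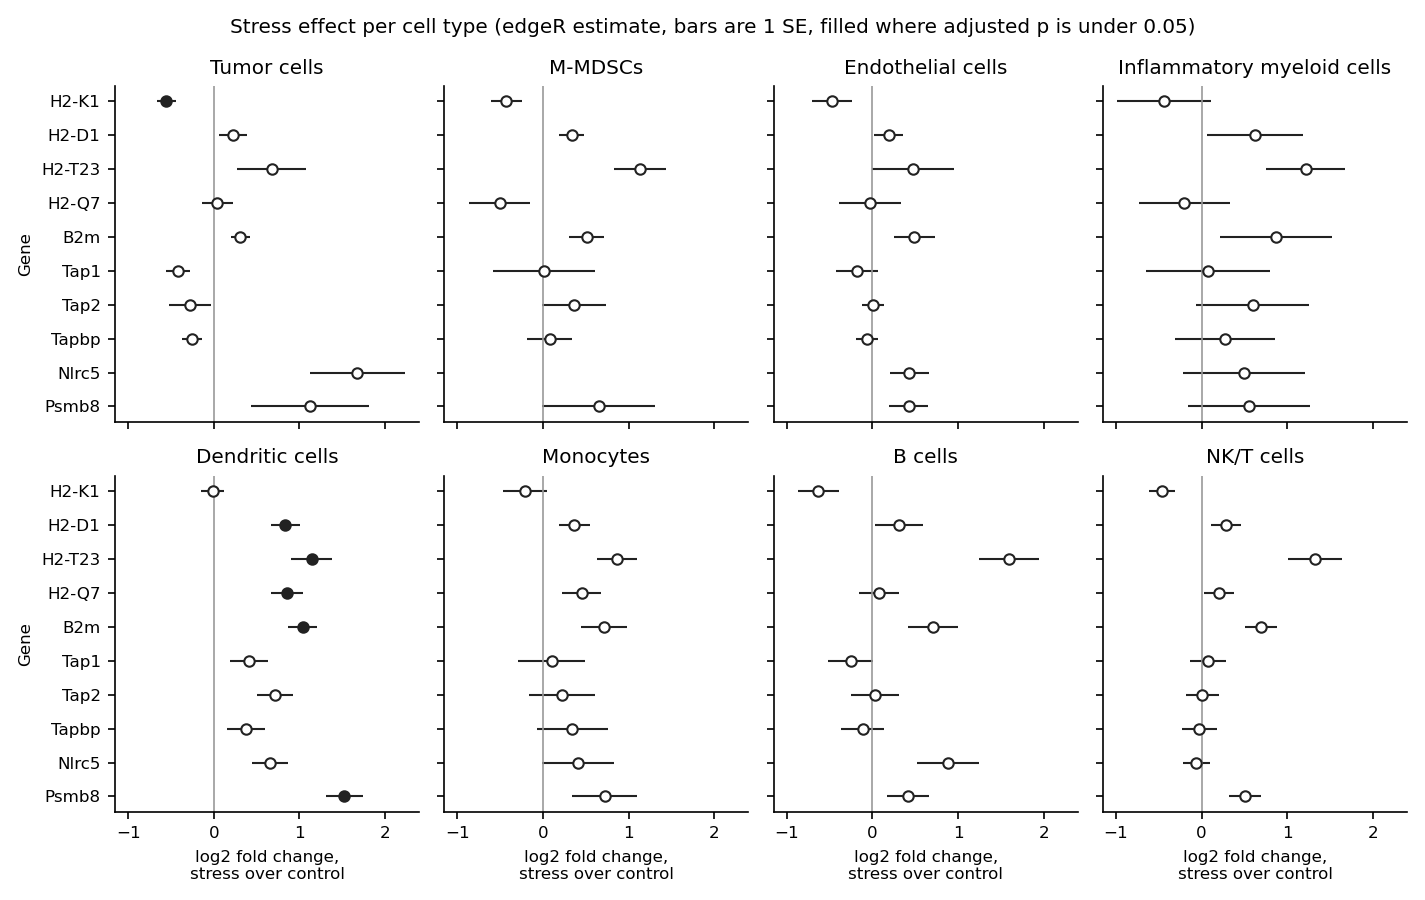
Log2 fold change of stress over control mice (x axis) for each of the 10 genes in 8 cell types, as edgeR estimates with 1 SE, filled where the adjusted p is under 0.05. H2-K1 is the only filled point in tumor cells, 5 genes are filled in DCs, and no other type has a filled point. H2-K1 lies left of 0 and H2-D1, H2-T23 and B2m right of 0 in every panel.

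With all mice, the H2-K1 and H2-D1 signs were shared by the 8 cell types tested. H2-K1 had a negative log2 fold change in 8 of 8 types, from -0.63 in B cells to -0.01 in DCs, while H2-D1 (0.19 to 0.83), H2-T23 (0.47 to 1.60), B2m (0.31 to 1.04) and Psmb8 (0.42 to 1.53) were positive in 8 of 8. These signs were the same under RLE, DESeq2 and total UMIs, although total UMIs move the median of all genes by up to 0.14. H2-K1 turned positive in DCs without a filter on low counts (0.0248), without control mouse 1 (0.0136) and without stress mouse 2 (0.0386), and in monocytes without control mouse 2 (0.0557). H2-T23 turned negative in ECs without stress mouse 1 (-0.0495). Cell types of a mouse share a library, so the 8 types are not 8 independent observations. Beside the calls in tumor cells and DCs, no single gene among these passed the main edgeR test. Other settings added calls in B cells and NK/T cells, given below.

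The share of H2-K1 in the UMIs of H2-K1 and H2-D1 does not depend on how libraries are scaled. In tumor cells it was 55.0%, 63.7% and 52.8% in control and 38.5%, 49.4% and 44.1% in stress mice. Every stress mouse lay below every control mouse in all 8 cell types tested. The means differed by 16.7 percentage points in inflammatory myeloid cells at most and by 8.53 in monocytes at least. In NK/T cells the share was 75.6%, 78.8% and 75.7% in control and 65.9%, 68.9% and 64.6% in stress mice. In ECs, with 64.0%, 74.0% and 65.2% against 48.3%, 63.9% and 58.0%, the groups were nearest to each other. Control mouse 2 and stress mouse 2 had the highest share of their group in tumor cells, ECs, monocytes, NK/T cells, B cells and M-MDSCs. The ratio was chosen after the values of both genes had been seen, and is given without a test. UMIs of different genes are captured unequally, so the share says nothing about how much of either protein the cells held.

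**Figure D3:**
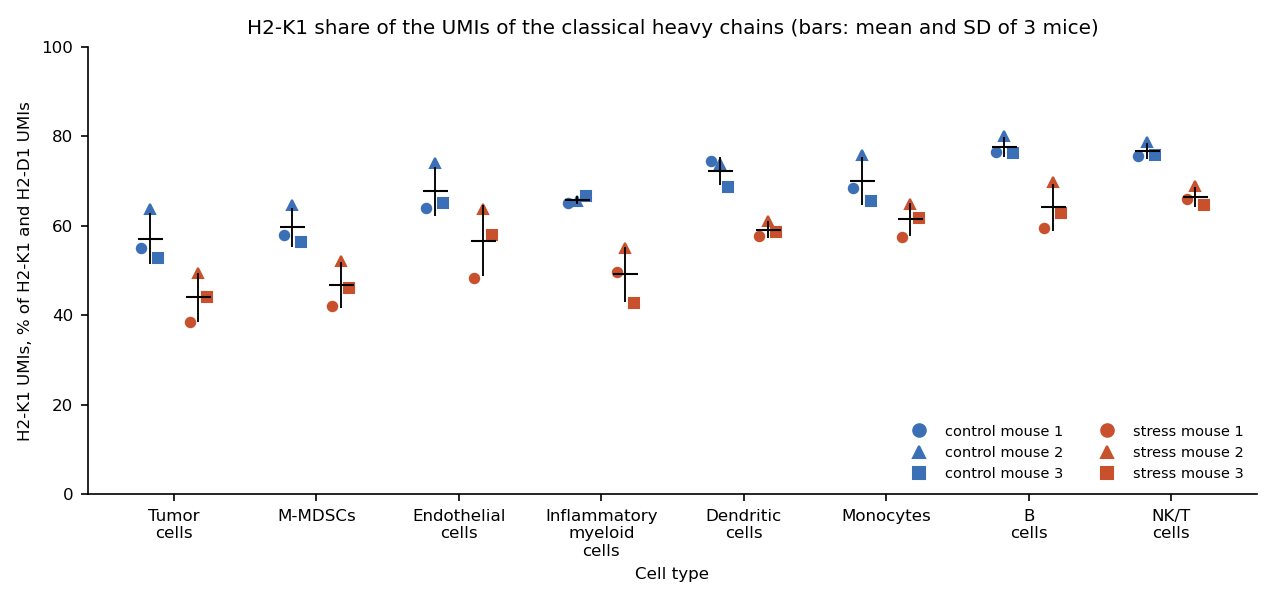
H2-K1 UMIs as a percentage of H2-K1 and H2-D1 UMIs (y axis, from 0 to 100) in 8 cell types, with 1 point per mouse, the mean and the SD of 3 mice. The stress points lie below the control points in each of the 8 types, and the lowest mean share of each group is that of tumor cells. In stress mouse 3 inflammatory myeloid cells lie below tumor cells (42.7% against 44.1%).

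All 4 heavy chains can be read together. In tumor cells of control mice, H2-K1 made up 54.4% of their UMIs, H2-D1 40.8%, H2-T23 2.69% and H2-Q7 2.10% on average. In those of stress mice these shares were 41.0%, 52.0%, 4.66% and 2.40%. In NK/T cells H2-D1 made up less, 20.1% in control and 26.9% in stress mice, and H2-Q7 more, 12.8% and 16.7%.

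In DCs, 5 of the 10 genes were called higher in stress mice and none lower, at a background of 2.64% of 10533 genes (2.13% higher and 0.513% lower). Psmb8 was at 112, 234 and 156 CPM in control and 400, 451 and 515 CPM in stress mice, which gave a log2 fold change of 1.53 ± 0.21 (edgeR adjusted p = 0.00405). B2m was at 566, 646 and 689 CPM against 1209, 958 and 1446 CPM, with 1.04 ± 0.17 (edgeR adjusted p = 0.00947). Neither gene overlapped between the groups. The share of all genes without overlap in DCs is not given here, so this lack of overlap is a description only.

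The heavy chains called in DCs were H2-D1, H2-T23 and H2-Q7. H2-D1 was at 398, 393 and 519 CPM in control and 775, 623 and 764 CPM in stress mice, which gave a log2 fold change of 0.83 ± 0.17 (edgeR adjusted p = 0.0232). H2-T23 had 1.14 ± 0.24 (edgeR adjusted p = 0.0261) and H2-Q7 0.86 ± 0.19 (edgeR adjusted p = 0.0377). H2-K1, in contrast, was at 1163, 1107 and 1138 CPM against 1055, 982 and 1084 CPM and had a log2 fold change of -0.01 ± 0.13. Tap2 (0.72 ± 0.21), Nlrc5 (0.66 ± 0.21), Tap1 (0.41 ± 0.22) and Tapbp (0.38 ± 0.22) were not called. With the replicate number as a block edgeR called Tap2 as well, with 6.28% of all genes called. Total UMIs, which move the median of all genes in DCs by -0.11 and the share of calls that are higher from 80.6% to 61.0%, lost the H2-Q7 call (edgeR adjusted p = 0.0605).

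These calls were not made within either cluster of the DCs, with an exception for Psmb8 under other settings. The annotation put clusters 19 and 20 together as DCs, and cluster 19 held 74.7%, 59.5% and 74.1% of them in control and 49.6%, 36.7% and 47.8% in stress mice. Cluster 20 was the richer one in class I, with Psmb8 at 354, 766 and 566 CPM in control and 768, 1025 and 1132 CPM in stress mice, against 14.8, 53.5 and 39.3 and 65.7, 108 and 77.0 CPM in cluster 19. Within cluster 20, 0 of the 10 genes were called by edgeR or DESeq2 (background 0.313%), with 2 at an unadjusted p under 0.05 beside 13.4% of all genes, and within cluster 19 also 0 by both (background 0.425%), with 3 unadjusted beside 8.52%. Without a filter on low counts edgeR called Psmb8 in both clusters, where its groups did not overlap, beside 1.2% of all genes in cluster 20 and 1.14% in cluster 19. With the replicate number as a block it was called in both as well, beside 2.65% and 1.49%. Psmb8 had log2 fold changes of 0.87 ± 0.28 (edgeR adjusted p = 0.206) and 1.13 ± 0.30 (edgeR adjusted p = 0.2) in these clusters, and B2m 0.65 ± 0.24 and 0.64 ± 0.19. H2-K1 was lower in every stress mouse within both, at 2580, 2601 and 2845 against 1768, 1839 and 1911 CPM in cluster 20 and at 599, 601 and 655 against 408, 470 and 497 CPM in cluster 19. Its log2 fold changes there were -0.45 ± 0.21 (edgeR adjusted p = 0.379) and -0.39 ± 0.15 (edgeR adjusted p = 0.462), not called. How many of all genes lay without overlap was not counted within these clusters.

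**Figure D4:**
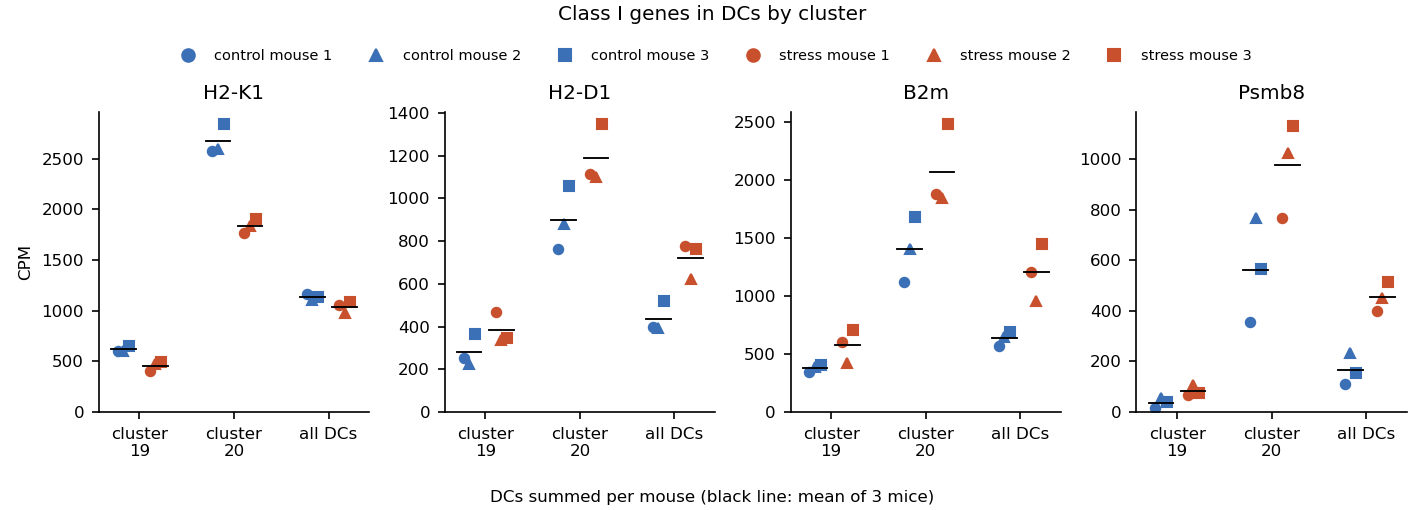
CPM (y axis, from 0) of H2-K1, H2-D1, B2m and Psmb8 in DCs of cluster 19, of cluster 20 and in all DCs, with 1 point per mouse and the mean of 3 mice as a line. Each gene is higher in cluster 20, and H2-K1 is lower in stress mice within both clusters but nearly level in all DCs.

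The clusters also differed in other markers. H2-Aa, an MHC class II chain of DCs, was at 5701 to 8828 CPM in cluster 20 and 191 to 587 CPM in cluster 19, and Krt18 was at 3.39 to 74.6 CPM and 246 to 594 CPM. The name DCs is therefore used for cluster 19 only as the annotation gives it. DCs numbered 79, 269 and 158 in control and 141, 553 and 356 in stress mice. The count of 5 genes fell to 1 without stress mouse 3, to 2 without control mouse 1 or stress mouse 1 and to 3 without control mouse 2. With cells thinned to 1000 UMIs none of the 5 was called (edgeR adjusted p from 0.102 to 0.659).

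In the other 6 cell types edgeR called 0 of the 10 genes. Backgrounds were 0.483% of genes in B cells, 0.213% in ECs, 0.0% in inflammatory myeloid cells, 0.561% in M-MDSCs, 0.122% in monocytes and 0.857% in NK/T cells. At an unadjusted p under 0.05 there were 4 genes in B cells (11.1% of all genes tested), 0 in ECs (15.6%), 1 in inflammatory myeloid cells (3.96%), 4 of the 9 tested in M-MDSCs (9.56%), 2 in monocytes (12.0%) and 4 in NK/T cells (13.1%). Nlrc5 did not pass the filter on low counts in M-MDSCs. DESeq2 called H2-T23 in B cells (1.18% of all genes called) and H2-T23 and B2m in NK/T cells (3.47%), and none in the other 4 types.

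H2-T23, the gene of Qa-1, had the highest estimate of the 10 genes in 5 of these 6 types, ECs being the exception. In B cells it was at 19, 50.1 and 70.3 CPM in control and 176, 136 and 123 CPM in stress mice, which gave a log2 fold change of 1.60 ± 0.35 (edgeR adjusted p = 0.0828, DESeq2 adjusted p = 0.00931). In NK/T cells it was at 20.4, 46.2 and 55.6 CPM against 122, 63.1 and 124 CPM, with 1.32 ± 0.32 (edgeR adjusted p = 0.0849, DESeq2 adjusted p = 0.00147). Its groups overlapped in tumor cells and ECs, where 38.3% and 22.8% of all genes did not overlap in either direction. Some of its reads may come from Hook2 and Rab33b, which share part of its 3' end.

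B2m in NK/T cells was at 905, 933 and 1065 CPM in control and 1386, 1194 and 1880 CPM in stress mice, which gave a log2 fold change of 0.69 ± 0.18 (edgeR adjusted p = 0.13, DESeq2 adjusted p = 0.0124). Without stress mouse 2, edgeR called both B2m (adjusted p = 0.0257) and H2-T23 (adjusted p = 0.00687) in NK/T cells, beside 1.19% of all genes. With the replicate number as a block it called B2m, beside 2.05%. H2-K1 was at 2452, 2881 and 2705 CPM against 1759, 1668 and 2096 CPM in the same cells, with -0.46 ± 0.15 (edgeR adjusted p = 0.219). With cells thinned to 1000 UMIs edgeR called H2-K1 lower in NK/T cells, beside 3.43% of all genes. In ECs all 10 genes overlapped between the groups, beside 22.8% of all genes that did not, and their log2 fold changes lay between -0.48 (H2-K1) and 0.49 (B2m).

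Whether stress acted differently on tumor cells and on host cells was tested as an interaction with the mouse as a block. None of the 10 genes was called by edgeR against ECs (background 0.13%) or against monocytes (background 0.0634%). At an unadjusted p under 0.05 there was 1 gene in each, beside 12.2% and 7.58% of all genes. DESeq2 was not run for this comparison. The smallest p was that of Nlrc5 in both, with a log2 difference of 1.5 ± 0.39 from ECs (edgeR adjusted p = 0.211) and of 1.41 ± 0.24 from monocytes (edgeR adjusted p = 0.106). Without control mouse 2 Nlrc5 was called in both (edgeR adjusted p = 0.00635 and 0.0268), beside 1.31% and 0.725% of all genes, and without a filter it was called against monocytes (edgeR adjusted p = 0.00803), beside 0.412%. For H2-K1 the differences were 0.01 ± 0.18 and -0.30 ± 0.21, and for B2m -0.12 ± 0.27 and -0.34 ± 0.26.

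The 10 tumor clusters gave 5 calls, among them Nlrc5 in cluster 9, which passed the filter on low counts there through the stress mice. The background was 14.6% in cluster 1 (7.15% higher, 7.41% lower), 14% in cluster 4 (7.17% and 6.84%) and 9.17% in cluster 9 (7.23% and 1.94%). H2-K1 was called lower in cluster 1, where it was at 292, 320 and 272 CPM in control and 198, 231 and 187 CPM in stress mice (edgeR log2 fold change -0.55 ± 0.10, edgeR adjusted p = 0.0104), and in cluster 4 (-0.47 ± 0.10, edgeR adjusted p = 0.0164). B2m was called higher in cluster 1 (0.31 ± 0.09, edgeR adjusted p = 0.0475) and in cluster 9 (0.47 ± 0.12, edgeR adjusted p = 0.0371). The B2m call in cluster 1 was lost whenever a mouse was left out, that in cluster 9 without any mouse but control 2, and that of H2-K1 in cluster 4 without control mouse 1. H2-K1 was negative and H2-D1, H2-T23 and B2m were positive in all 10 clusters, except that thinning turned H2-K1 in 1 of them. In the other 7 clusters edgeR called 0 of the 6 to 10 genes tested in each, with 1 to 3 at an unadjusted p under 0.05 (11.2% to 23.4% of all genes), while DESeq2 called H2-K1 in clusters 3, 6 and 14 (6.76%, 5.36% and 8.08% of all genes called by DESeq2) and B2m in cluster 7 (6.47%). The edgeR backgrounds were 3.11% in cluster 3, 2.05% in cluster 5, 1.17% in cluster 6, 3.48% in cluster 7, 6.71% in cluster 14, 2.01% in cluster 17 and 0.855% in cluster 21.

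Among the tumor clusters edgeR called Nlrc5 in cluster 9, in a fit that the gene entered through its counts in stress mice. It was at 0.151, 0.434 and 0 CPM in control mice 1, 2 and 3 and at 7.07, 3.44 and 4.79 CPM in stress mice 1, 2 and 3, which rests on 6 UMIs in the 1735 control cells and 117 UMIs in the 1068 stress cells. A UMI was seen in 0.346% of the control and 7.30% of the stress cells of cluster 9, against 0.856% and 1.95% in the other tumor clusters. Nlrc5 passed the filter on low counts there through the stress mice, so the call of that fit is not used as support. The size of the difference is given by these UMIs and not by a fitted fold change. Nlrc5 was also called with no filter, beside 11.3% of all genes, and too few of its UMIs were left for a fit after thinning. Nlrc5 was also without overlap in cluster 17, at 3.62, 2.75 and 0 CPM in control and 8.09, 13.7 and 4.52 CPM in stress mice from 0 to 13 UMIs a mouse, and in cluster 7, at 0, 0.281 and 0.226 against 0.594, 0.935 and 0.595 CPM. Its counts there did not pass the filter, and the fit without a filter did not call it in cluster 17 (edgeR adjusted p = 0.36) or cluster 7 (edgeR adjusted p = 0.123). Whether cluster 9 differs from them was not tested. Cluster 9 held 9.24% of the tumor cells of stress mice and 29% of their Nlrc5 UMIs, against 9.59% and 3.95% in control mice.

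Other genes in cluster 9 bear on this. Pecam1 was at 5.20, 5.53 and 4.07 CPM in control and 65.8, 34.7 and 37.2 CPM in stress mice there, while Cdh5 was at 2.26, 2.82 and 2.72 against 1.41, 2.5 and 3.99 CPM. Tyrobp in this cluster was at 1.05, 5.53 and 2.35 against 1.31, 4.22 and 7.34 CPM, with overlap. Psmb8 was at 0.151, 0.977 and 0.362 against 0.762, 2.5 and 2.71 CPM and overlapped. Every stress mouse lay above every control mouse in Pecam1 in 9 of the 10 tumor clusters, cluster 21 being the exception. The rise was largest in cluster 9, where the stress mean was 9.31 times the control mean. In the other clusters without overlap this ratio was 1.76 (cluster 7) to 3.255 (cluster 5). The share of all genes without overlap was not counted within clusters. In the other clusters where Nlrc5 did not overlap, Pecam1 was at 29, 33 and 11 against 64.8, 53.8 and 90.3 CPM (cluster 17, the highest means of all) and at 2.40, 3.44 and 2.15 against 4.95, 5.19 and 3.93 CPM (cluster 7). The part of RNA from ECs in the Nlrc5 UMIs of these clusters was not tested. Cluster 17 had the highest means of H2-K1, H2-Q7, Tap1, Nlrc5 and Psmb8 of the tumor clusters, with Psmb8 at 3.62, 6.42 and 0 CPM against 6.07, 16.9 and 18.1 CPM, and it also held more Ptprc (8.79 to 51.9 CPM) and Cd74 (11 to 108 CPM).

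**Figure D5:**
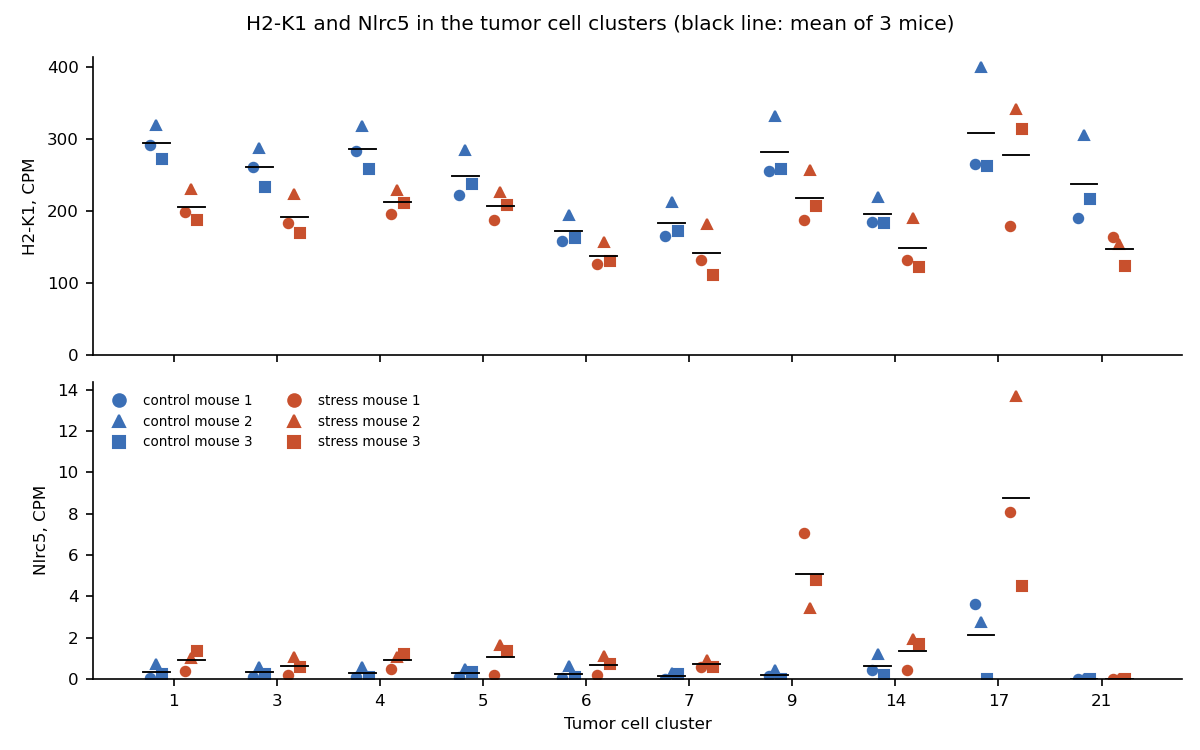
CPM (y axis, from 0) of H2-K1 and Nlrc5 in each of the 10 tumor cell clusters, with 1 point per mouse and the mean of 3 mice as a line. H2-K1 means are lower in stress mice in all 10 clusters, whereas Nlrc5 in cluster 9 reaches 3.44 to 7.07 CPM in stress mice and at most 0.434 CPM in control mice.

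The immunoproteasome subunit was also set against the subunit it replaces. Psmb8 made up 0.176%, 0.673% and 0.194% of the Psmb8 and Psmb5 UMIs in tumor cells of control and 0.276%, 0.962% and 0.988% in those of stress mice, so that nearly all UMIs of the pair were Psmb5. The difference of 0.394 percentage points did not pass a two-sided exact permutation test (p = 0.2, adjusted p = 0.4 over 8 cell types). With 3 mice against 3 this test cannot go below 0.1. In DCs the share was 55.8% ± 4.64 (SD, n = 3) in control and 73.2% ± 3.43 in stress mice (exact p = 0.1, adjusted p = 0.4). It was 25.1% ± 5.0 and 33.0% ± 4.74 in ECs, 63.0% ± 9.17 and 73.2% ± 5.73 in monocytes, and 68.0% ± 5.55 and 68.5% ± 6.11 in NK/T cells. M-MDSCs held 4.32% and 5.56%.

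Of the 35 other genes listed for class I presentation, all were tested in tumor cells, where 2 were called higher and none lower, below the background of 21.4%, and 14 had an unadjusted p under 0.05, beside 37.4% of all genes. Their median log2 fold change was 0.01, beside -0.01 over all genes. Psme2, a subunit of the PA28 proteasome activator, was at 91.4, 95.2 and 93.4 CPM in control and 160, 133 and 151 CPM in stress mice (0.53 ± 0.11, edgeR adjusted p = 0.0167). Ifngr2, a chain of the interferon gamma receptor, was at 24.1, 31.6 and 25.5 against 37.6, 39.3 and 46.0 CPM (0.46 ± 0.12, edgeR adjusted p = 0.0307). By group, 1 of 7 proteasome genes, 0 of 5 trimming and loading genes, 0 of 10 other heavy chains and class I-like genes, 0 of 8 regulators and 1 of 5 genes of interferon gamma and its receptor were called. Both calls were lost without control mouse 1, control mouse 3 or stress mouse 3, and that of Ifngr2 also without stress mouse 1 or 2.

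In DCs 5 of the 31 pathway genes tested were called higher and none lower, with 14 at an unadjusted p under 0.05 beside 17% of all genes. The median log2 fold change of the list was 0.50 in all DCs, 0.21 within cluster 19 and 0.19 within cluster 20, beside -0.02 over all genes in all DCs. Psmb9, an immunoproteasome subunit, was at 95.6, 141 and 104 CPM in control and 228, 267 and 293 CPM in stress mice (1.30 ± 0.17, edgeR adjusted p = 0.00401). Psme1 (1.04 ± 0.17, edgeR adjusted p = 0.00975), Nfkb1 (1.03 ± 0.24, edgeR adjusted p = 0.0409) and Psme2 (0.99 ± 0.18, edgeR adjusted p = 0.0144) followed, and none of these was called within cluster 19 or cluster 20. Jak2, a kinase of the interferon gamma receptor, was the fifth (0.94, edgeR adjusted p = 0.0309). All 5 calls were lost in cells thinned to 1000 UMIs, and the count fell to 1, Psmb9, without stress mouse 3 and to 2 without control mouse 1 or 3. Nfkb1 and Jak2 were each lost in 8 of 13 alternatives, total UMIs among them. ECs (background 0.106% higher) gave 1 call, Irf2, an interferon regulatory factor (0.68, edgeR adjusted p = 0.0473), and NK/T cells (0.536% higher) 1, Jak2 (0.79, edgeR adjusted p = 0.0481). The Irf2 call was lost in cells thinned to 1000 UMIs and whenever a mouse was left out (edgeR adjusted p up to 0.297). The Jak2 call in NK/T cells was lost when thinned, with RLE factors, with total UMIs and when any mouse but stress mouse 2 was left out (edgeR adjusted p up to 0.187). In the other 4 types edgeR called none of the list, with 2 to 6 genes at an unadjusted p under 0.05, beside 3.96% to 12.0% of all genes. Ifng itself, the interferon gamma gene, was at 202, 213 and 146 CPM in NK/T cells of control and 213, 198 and 149 CPM in those of stress mice.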

How the data were processed

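Raw UMI counts of each cell, as deposited, came from 10x Genomics libraries, with a table of each cell's mouse, cluster and cell type. The submitters' processing notes name Cell Ranger, Seurat and mm10. The gene annotation is not given in the sources used here. Cells were kept as annotated, and doublets were not called again. Counts were summed per mouse over each cell type and tumor cluster and compared in R 4.3.3 with edgeR 4.0.16 (filterByExpr, TMM, quasi-likelihood test, Benjamini-Hochberg adjustment over all genes tested, threshold 0.05). Neutrophils and HSCs had under 10 cells in some mouse and were left out of tests. The interaction fits used 12 sums each, with mouse as a block. Steps were tested on simulated data. Alternatives were DESeq2 1.42.0, RLE, no filter, thinning to 1000 UMIs per cell, other sets of cells, the replicate number as a block, and leaving out each mouse. Scaling by total UMIs and DCs of cluster 19 were added after the data were seen. Shares used exact permutation tests (scipy 1.17.1), figures matplotlib 3.10.9, and tables Python 3.11.15 with pandas 2.3.3 and numpy 2.4.6.

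The 10 genes, the 35 pathway genes and the markers were chosen with earlier results of these data known. All 10 genes are named throughout, the pathway genes by counts with the 4 largest changes past the threshold, and the 5 genes most like the 10 by correlation. Ifng in NK/T cells and Pecam1 in cluster 9 were named after their values were seen. Of 34099 gene identifiers, 32061 were found in GENCODE M21. Mice are the replicates, 3 in each group, and this number and the depth per mouse limit the precision.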

Additional observations from a re-analysis of the deposited data

How the results depend on the processing

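The number of the 10 genes called in tumor cells was 1 (21.4% of all genes called), and became 3 with DESeq2 (26.5%), 5 with the replicate number as a block (27%), 0 when cells were thinned to 1000 UMIs (3.97%), and 1 to 3 when a mouse was left out (3 without control mouse 2, 29.9%). In the 7 other cell types the total of 5 became 8 with DESeq2, 10 without a filter and 7 with the block (Tap2 in DCs and B2m in NK/T cells added). When thinned it became 1, H2-K1 in NK/T cells, beside 3.43% of all genes there. It was 0 with DCs of cluster 20 only, ECs without cluster 15 and monocytes without cluster 13, 0 with DCs of cluster 19 only, and 1 to 7 when a mouse was left out. In DCs, which held the 5 calls, the share of all genes called was 2.64%, 3.6% with DESeq2, 3.79% without a filter, 6.28% with the block, 0.554% when thinned and 0.668% to 3.66% over mice left out. Without a filter H2-T23 was also called in B cells, beside 1.73% of all genes, and B2m and H2-T23 in NK/T cells, beside 2.21%. In the tumor clusters 5 calls became 11 with DESeq2, 10 without a filter, 15 with the block, 1 when thinned and 2 to 9 when a mouse was left out (2 without control mouse 1, 9 without control mouse 2, and 3 without control mouse 3 or stress mouse 1). All of these totals but the thinned one include Nlrc5 in cluster 9. It passed the filter on low counts in the main fit through the stress mice, so its call is not used as support. In clusters 1, 4 and 9, which held the 5 calls, 9.17% to 14.6% of all genes were called, against 10.4% to 16.9% with DESeq2, 10.8% to 11.3% without a filter, 15% to 18.9% with the block and 18.4% to 22.7% without control mouse 2. The block also gave calls in clusters 3, 5 and 14, where it called 9.5%, 5.45% and 6.67% of all genes. Without a filter there were also calls in clusters 7 and 14 (5.85% and 7.28%), and without stress mouse 2 in cluster 14 (2.22%). For clusters 1, 4 and 9 in turn, thinned cells had 2.61%, 3.01% and 0.958% of all genes called. Dropping control mouse 1 gave 5.47%, 5.75% and 4.69%, and dropping control mouse 3 gave 4.91%, 4.45% and 3.38%. With stress mouse 1 dropped, the shares were 10.1%, 8.31% and 4.65%. They were 6.5%, 6.81% and 5.14% without stress mouse 2, and 7.66%, 8.34% and 7.46% without stress mouse 3. Of the pathway genes 2 were called in tumor cells (21.4% of all genes called). The count became 8 with DESeq2 (26.5%), 8 with the block (27%) and 5 with total UMIs (17.6%). It was 5 in tumor cells with at most 1 UMI of other markers (14.7%). Leaving out a mouse gave 0 to 10, with 0 without control mouse 1 (8.86%) or control mouse 3 (6.14%) and 10 without control mouse 2 (29.9%). Of the interaction counts, that against monocytes was 1 without a filter, and both were 0 to 1 when a mouse was left out. The immunoproteasome share in tumor cells kept its sign, with differences of 0.27 to 0.63 percentage points when a mouse was left out.

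Of 553 repeats of 44 fold changes, 493 kept both sign and side of the threshold, 26 lost a call, 22 gained one and 12 changed sign. The sign changes were in tumor cells H2-Q7 (-0.10 to 0.20 over mice left out) and Tapbp (0.0093 when thinned), in DCs H2-K1 (0.0248 without a filter, -0.0582 to 0.0386 over mice left out), Tap2 (from 0.72 to -0.0495 when thinned) and, in cluster 20 only, Tap1 (from 0.41 to -0.17), Tapbp (from 0.38 to -0.0394) and Nlrc5 (from 0.66 to -0.0511), and H2-K1 in monocytes (-0.39 to 0.0557) and H2-T23 in ECs (-0.0495 to 0.88) over mice left out. Thinning keeps fewer UMIs of every gene, and leaving out a mouse keeps fewer samples. The cause of the other differences was not tested. Replicate numbers were not taken to pair the mice, as the lowest of 3 correlations of same-numbered mice was under the 0.1 set for pairing. In tumor cells they were 0.62, 0.48 and -0.22, with 0.57 at most between other numbers. In ECs they were 0.61, 0.46 and 0.0491, with 0.22 at most between other numbers. In DCs they were 0.17, 0.28 and 0.0365, with 0.11 at most, and in NK/T cells the lowest was 0.0905. Every value was positive in ECs, DCs and NK/T cells, and in NK/T cells each exceeded the highest value between other numbers (0.0876), a hint from the data and not from the design. The block called B2m, H2-T23, Nlrc5 and Psmb8 in tumor cells beside H2-K1.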

Other observations

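HSCs and neutrophils had fewer than 10 cells in at least 1 mouse, with 128 and 175 cells in all, and were not compared. H2-K1 in HSCs was at 1720, 3649 and 4343 CPM in control and 1068, 1478 and 1831 CPM in stress mice. H2-D1 in HSCs was at 720, 1178 and 1271 CPM against 718, 757 and 906 CPM, so that its mean was lower in stress mice, unlike in the 8 types tested. H2-K1 in neutrophils was at 579, 1738 and 1006 CPM and 912, 888 and 1464 CPM, and Psmb8 was at 85.7, 115 and 43.8 CPM and 102, 116 and 221 CPM. The H2-K1 share of H2-K1 and H2-D1 UMIs was 70.5%, 75.6% and 77.4% against 59.8%, 66.1% and 66.9% in HSCs, without overlap, and 61.4%, 67.4% and 54.8% against 51.3%, 55.8% and 54.2% in neutrophils, with overlap. Among tumor clusters the share was without overlap in 8 of 10, clusters 5 and 17 being the exceptions.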
